A study of Anser sp. with 4 samples.

Results

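The step from 1.5 to 5 days after molt in goose skin was read from 2 arrays, 1 of skin at 5 days and 1 of skin at 1.5 days, out of 4 arrays in all. A transcript identifier entered the comparison when at least 1 of its probes was well above background on at least 1 of these arrays, as the scanner software flags it. This held for 18858 of the 31533 identifiers on the array. The study followed feather regeneration in Wanxi-White geese, a domestic breed, and took ventral skin of females at 1.5, 5 and 10 days after molt, with a further sample from before it. The labels name 6 geese, randomly chosen and penned apart when molting was about to start in the flock. Which bird gave which sample, how far RNA was pooled and the age at sampling are not stated there. All 4 samples share the housing, the diet, the sex and the site of the skin, and no allele or agent was given. The molt is the only condition that the labels vary.

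After a molt, the follicle that lost its feather starts a new one. Cells at its base divide, are displaced upwards, take their place in barbs and shaft, fill with keratins and die, so the transcripts of the follicle turn over as the feather is laid down. Skin taken with its follicles also holds epidermis, dermis, vessels, nerves, muscle of the feather follicle and blood. In such a bulk sample, fewer cells of a type and less RNA per cell cannot be told apart. The files pair 0 of the identifiers with a gene symbol, a description, a coordinate or a sequence, so the roles of the transcripts and the markers of skin cell types were not read, and the values below are given by identifier.

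The arrays were made for chicken (design build galGal3) and read goose RNA, so each ratio compares a probe with itself. A level is the log2 processed intensity less the 75th percentile of its own array, and a ratio is the level at 5 days minus the level at 1.5 days. Each time has a single array, so there is no replicate error and no p-value is given. At 5 days 52.4% of the spots and 17061 identifiers were well above background, and at 1.5 days 56.6% of the spots and 18486 identifiers. The 75th percentile of the processed intensity was 105 at 5 days and 134 at 1.5 days. Both arrays were on 1 slide and in 1 scan. For 22 probes spotted 5 times, the SD of the ratio between spots was 0.12. Over 16 blocks of the array, with at least 1316 probes each, the median ratio lay between -0.13 and 0.08. The spike-in RNAs were added in a fixed series of amounts. They were read on 5 probes with 32 spots each. These were chosen as mid-range in intensity, with every spot well above background on every array. They averaged 3.22 above the 75th percentile at 5 days and 3.57 at 1.5 days, a difference of -0.35 ± 0.07 (SD over the 5 probes).

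Most identifiers had nearly the same level at both times. The ratio had a median of -0.03, quartiles of -0.29 and 0.24, and a 1st and 99th percentile of -1.63 and 1.47. Within 1.5-fold lay 15277 identifiers, 81.0% of those compared. A call was set at 2-fold. It was passed upward at 5 days by 654 identifiers (3.47%) and downward by 550 (2.92%). These counts depended on the processing, with 1580 higher and 279 lower after scaling on the spike-ins, 77 and 457 after normexp, a model-based background correction, and 1572 and 1438 with no filter on dim probes. Among larger ratios the lower side prevailed, though not under spike-in scaling, where 111 identifiers were higher and 75 lower at 4-fold. As reported here, a 4-fold ratio was reached upward by 39 (0.207%) and downward by 118 (0.626%), and a 16-fold ratio upward by 1 (0.0053%) and downward by 10 (0.053%). The 16-fold counts were 2 higher and 3 lower after scaling on the spike-ins, 0 and 21 after normexp, and 9 and 16 with dim probes left in, and the higher one was not counted when both arrays had to be above background. The single ratio past 16-fold upward is a bound, since its 1.5-day side was not well above background. Of the identifiers past 2-fold 54.3% were higher, and this balance depended on the scaling and the background correction. It was 57.5% after quantile normalization, 59.5% after median centring, 85.0% after scaling on the spike-ins and 14.4% after normexp. The median ratio of all identifiers shifted to 0.33 under spike-in scaling, 0.21 under normexp and 0.14 with no filter on dim probes.

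**Figure D1:**
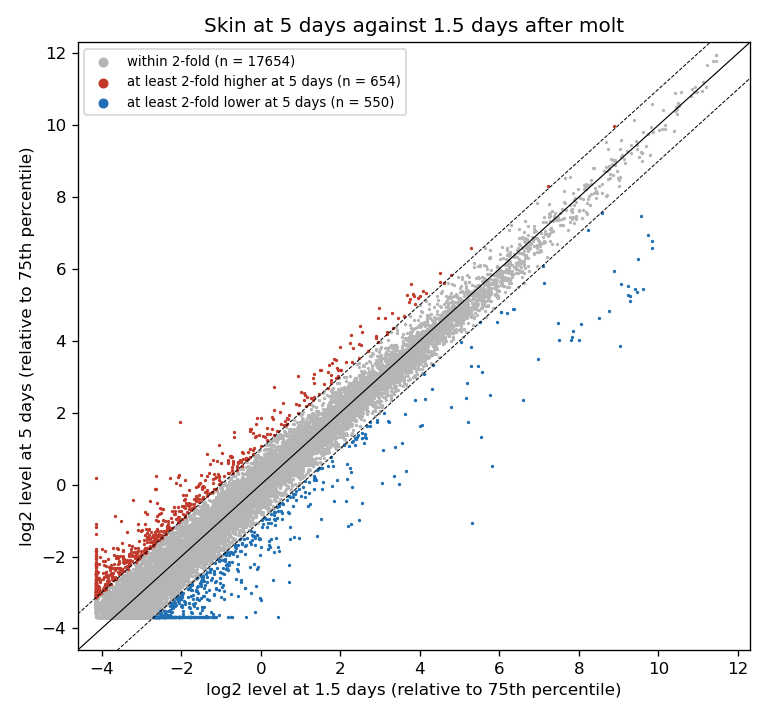
Level of each identifier at 5 days (vertical axis) against 1.5 days (horizontal axis), in log2 units relative to the 75th percentile of the array, with 1 array per time. The solid line marks equal levels and the dashed lines 2-fold; the 550 lower identifiers reach up to levels of about 10 at 1.5 days, while the 654 higher ones lie mostly at low levels. The straight edges at the left and bottom are the detection bounds of -4.14 at 1.5 days and -3.67 at 5 days.

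Many of the lowest ratios belonged to transcripts that are among the brightest of this skin at other times. To look at brightness without using the arrays compared, identifiers were ranked by their mean level before molt and at 10 days. Of the 100 brightest, 28 were at least 2-fold lower at 5 days and 1 was at least 2-fold higher. All 28 were at least 4-fold lower, 6 of them at least 16-fold. Their ratio ran from -5.17 to -2.11 with a median of -3.65, which is 12.6-fold lower (4.31-fold to 36.0-fold). The other 72 had ratios from -0.62 to 1.08 with a median of 0.05, and 66 of them lay within 1.5-fold. None of the 100 had a ratio between -1 and -2, so the brightest transcripts parted into a steady set and a lower one. The count of 28 ran from 28 to 35 over the 10 alternatives, and the count of higher ones from 0 to 4.

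Across the 4 times the 28 identifiers had a median level of 11.05 before molt and 8.96 at 1.5 days. At 5 days the median was 4.97, and by 10 days it was 10.72. The range over the 28 was 8.77 to 11.89 before molt, 3.65 to 9.83 at 1.5 days, 0.38 to 7.46 at 5 days, then 8.68 to 11.68 at 10 days. At 5 days the highest of them was below the lowest of the same identifiers before molt and at 10 days. The other 72 had median levels of 9.70, 9.66, 9.78 and 9.53 at these times. The 28 held 24.2% of the summed signal of all identifiers compared before molt. At 1.5 days they held 6.66%, at 5 days 0.66%, and at 10 days 22.9%. For the 72 these shares were 32.9%, 39.7%, 46.2% and 34.4%. A share rises when other signal falls, so these values do not by themselves show a gain in the 72. At 1.5 days the median of the 28 was already below that before molt, and at 5 days it was lower still. The ranking requires a high mean level before molt and at 10 days, and the call a lower level at 5 days than at 1.5 days. The courses of both sets are thus in part set by the choice and are given as a description.

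The 10-day level minus the level before molt, from arrays that the ratio does not use, had a median of -0.33 over the 28 and ran from -1.08 to 0.87. The ranking requires a high mean level on these same arrays, which limits how far they can differ, so these values are given as a description. Over all 17971 identifiers that could be compared on these arrays the median was -0.04. All 28 were well above background at 5 and 1.5 days, so none of their ratios is a bound. Each of the 28 was read by 1 probe, as were 58 of the 72, so probes could not be set against each other here. An Ensembl chicken transcript named 26 of the 28 and 25 of the 72. Copies of a gene with nearly the same sequence would light up the same probes, so the number of genes behind the 28 was not determined.

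**Figure D2:**
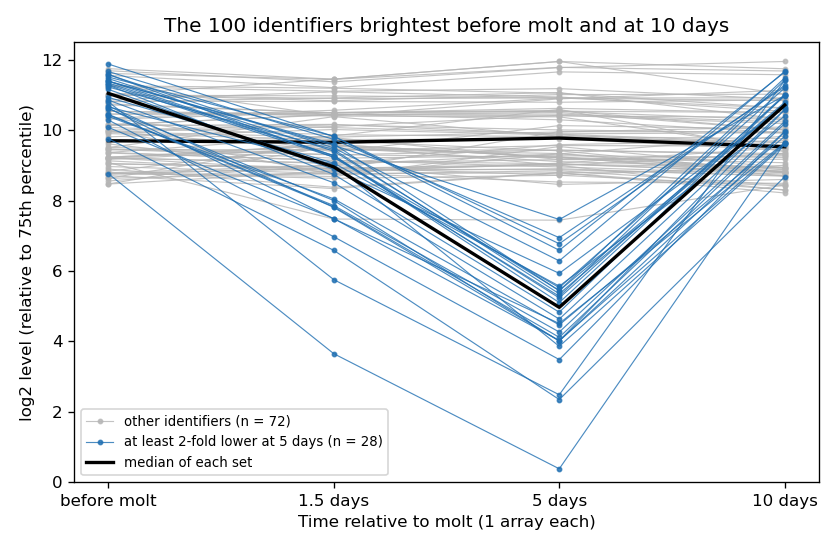
Levels of the 100 identifiers with the highest mean level before molt and at 10 days, at the 4 times (1 array each), in log2 units relative to the 75th percentile. Blue lines are the 28 identifiers past 2-fold downward at 5 days against 1.5 days, grey lines the other 72, and black lines the median of each set; the blue median is 4.97 at 5 days and 8.96 at 1.5 days, and the grey median stays between 9.53 and 9.78.

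Further down in brightness the 2 directions came into balance and then turned. Of the next 900 identifiers in this ranking, 11 were higher (1.22%) and 25 lower (2.78%), 12 of the lower at least 4-fold. Of the 4000 after these, 82 were higher (2.05%) and 99 lower (2.48%). The following 5000 held 149 higher (2.98%) and 144 lower (2.88%). The 8858 dimmest held 411 higher (4.64%) and 254 lower (2.87%). The median ratio was -0.17 for the 900 and 0.00 for the 8858 dimmest, and the distance between the quartiles was 0.46 and 0.58. Higher identifiers outnumbered lower ones most among dim transcripts, which also carry the larger spread between probes. The detection bound was -4.14 at 1.5 days and -3.67 at 5 days, so a dim identifier could be called higher from a lower level than it could be called lower. The part of this in the turn was not tested. The balance of directions also depended on the processing, and values under the alternatives are given only for the 100 brightest.

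**Figure D3:**
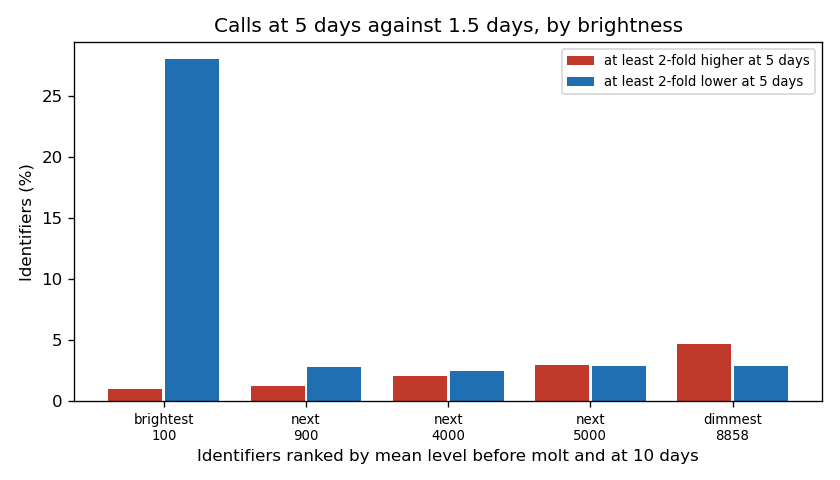
Share of identifiers past 2-fold upward (red) or downward (blue) at 5 days against 1.5 days, in percent, in 5 classes ranked by mean level on the arrays of 10 days and before molt, with the number of identifiers under each class. Among the 100 brightest 1 was higher and 28 were lower, and among the 8858 dimmest 4.64% were higher and 2.87% lower.

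Fewer identifiers were detected at 5 days. Well above background on both arrays were 16689 identifiers, 372 at 5 days alone and 1797 at 1.5 days alone. Both of these sets were dim where they were detected, with a median level of -3.12 at 5 days for the 372 and of -3.48 at 1.5 days for the 1797. The detection bound itself was higher at 5 days (-3.67) than at 1.5 days (-4.14). The 5-day array was also dimmer, with a 75th percentile of 105 against 134. Relative to this percentile, the spike-ins were lower at 5 days too, by a ratio of -0.35. The part of this dimness in the counts detected was not tested. In each set 175 ratios passed 2-fold as bounds, and 14 of the 372 and 35 of the 1797 passed 4-fold.

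Where an identifier had several probes, they served as the check in place of replicates. In use were 2 or more probes for 4249 identifiers and 1 probe for 14609. With 2 or more probes 60 identifiers were at least 2-fold higher (1.41%) and 57 lower (1.34%), whereas with 1 probe 594 were higher (4.07%) and 493 lower (3.37%). Averaging narrows the spread of a mean, and its part in the fewer calls with more probes was not tested. Of the 60 higher identifiers 58 had every probe above 0 and 32 (53.3%) had every probe past 2-fold. Of the 57 lower ones 53 had every probe below 0 and 22 (38.6%) had every probe past 2-fold. At 4-fold every probe was past 2-fold in 6 of 6 higher and 6 of 7 lower identifiers. The call rests on the mean of these same probes, which by itself makes such agreement frequent, so these counts are given as a description. Probes past 2-fold in both directions were seen in 3 identifiers.

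The SD of the ratio between probes of 1 identifier was 0.34 (9354 probes of 3766 identifiers, all well above background on both arrays). It was 0.25 for probes brighter than the 75th percentile on average and 0.43 for dimmer ones. A single probe has all of this error. The ratios of the first and the second probe of an identifier correlated with a Pearson r of 0.45 over 3766 pairs, 0.56 over the 1918 brighter pairs and 0.35 over the 1848 dimmer ones. These are correlations across transcripts, which share both arrays and are no replicates.

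**Figure D4:**
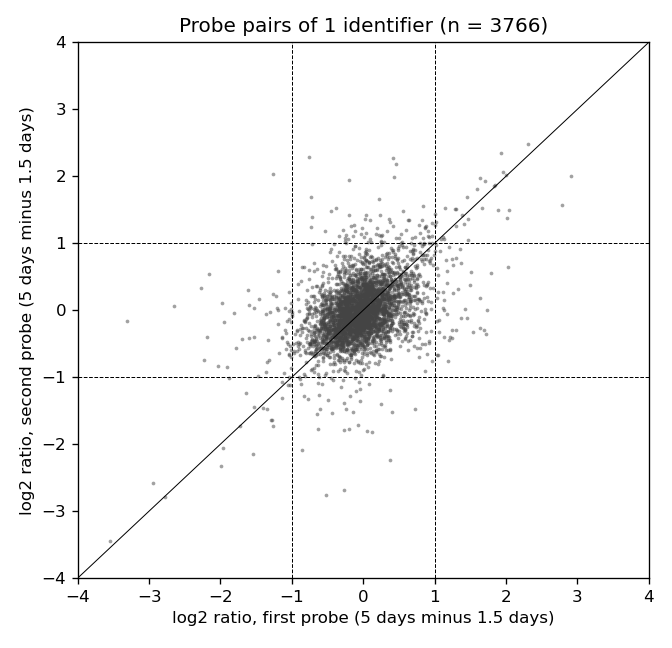
Log2 ratio (5 days minus 1.5 days) of the second probe against that of the first probe for the 3766 identifiers with 2 or more probes well above background on both arrays. Dashed lines mark 2-fold and the solid line equal ratios. Most pairs lie near 0, and the correlation is 0.45.

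A choice made on some probes was then read on others. Identifiers with 2 or more probes were called from alternate probes, and the remaining probes of the same identifiers were read. The 107 chosen as higher had a median ratio of 0.57 on the remaining probes, with quartiles of -0.09 and 1.28, and 75 of them (70.1%) were above 0, against 46.8% of all 4249 identifiers. Past 2-fold upward were 35 of the 107 (32.7%), against 2.89% of all 4249 identifiers on these remaining probes. For the 104 chosen as lower the median was -0.42, with quartiles of -0.95 and -0.01, and 78 of them were below 0, against 53.2% of all. With dim probes left in, this median was -0.05, and after scaling on the spike-ins it was -0.06. Past 2-fold downward were 25 of the 104 (24.0%), against 2.02% of all. As processed here, most 2-fold ratios on 1 set of probes were therefore smaller than 2-fold on the rest, and most kept their side of 0. For those chosen as lower, the median came close to 0 under the 2 alternatives named. The median ratio of all identifiers also moved, to 0.14 with dim probes left in and to 0.33 after scaling on the spike-ins. The lower set thus stayed below all identifiers under both. For those chosen as higher, the median on the remaining probes was 0.37 and 0.68 under these 2 alternatives.

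By the rule on names, 2 identifiers each way are given in full, the largest ratios among those with 2 or more probes in use, every one well above background on both arrays and past 2-fold. There were 28 higher and 13 lower identifiers to choose from. NM_205336, a RefSeq mRNA, is read by 3 probes, of which 2 were in use. The first gave a processed intensity of 55.6 at 5 days and 9.43 at 1.5 days, and the other in use 258 at 5 days and 81.8 at 1.5 days. The ratios were 2.91 and 2.01, with a mean of 2.46 (5.51-fold higher at 5 days). The remaining probe was at background on all 4 arrays, with intensities between 1.60 and 1.72. The level of NM_205336 was -1.81 before molt and -2.27 at 1.5 days, then 0.19 at 5 days and -3.35 at 10 days, so that 5 days was the highest of the 4 arrays and 10 days the lowest. The 10-day level is an upper bound, since its first probe was not well above background there, and the other probe in use was also lowest at 10 days, at -2.70.

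NM_001159315 had probes that followed each other closely. Their processed intensities were 780 and 615 at 5 days, against 202 and 140 at 1.5 days, and their ratios of 2.31 and 2.49 differed by 0.18. The mean ratio was 2.40, or 5.27-fold higher at 5 days. Its level was 0.69 before molt and 0.33 at 1.5 days, then 2.72 at 5 days and 1.53 at 10 days. It was highest at 5 days and at 10 days still stood above its level at 1.5 days and before molt. Among the identifiers compared it ranked 2520 by level at 5 days and 6677 at 1.5 days.

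NM_001006368 had the largest ratio among the 13 lower identifiers that met the rule. Its probes gave intensities of 11.7 and 14.6 at 5 days, against 115 and 112 at 1.5 days, which are ratios of -2.94 and -2.58 and a mean of -2.76 (6.79-fold lower at 5 days). At 5 days it lay near the detection bound, at a level of -3.00. It alternated over the course, with levels of -1.86 before molt and -0.24 at 1.5 days, then -3.00 at 5 days and 0.54 at 10 days, and both probes showed this order. Its ratio was -0.50 under normexp, which adds a constant of 50 to every intensity.

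NM_001001296 was bright at 1.5 days and lower at every other time. Its probes gave intensities of 592 and 1836 at 5 days, against 3011 and 11820 at 1.5 days. The ratios were -1.99 and -2.33, with a mean of -2.16 (4.48-fold lower at 5 days). The level was 1.74 before molt and 5.48 at 1.5 days, then 3.31 at 5 days and 0.74 at 10 days, and both probes gave the same order of times. By level it ranked 1858 at 5 days and 566 at 1.5 days among the identifiers compared. Its course differs from that of the 28 bright identifiers, which were lowest at 5 days. The ranking of the 28 by level before molt and at 10 days in part sets this difference, which is given as a description.

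**Figure D5:**
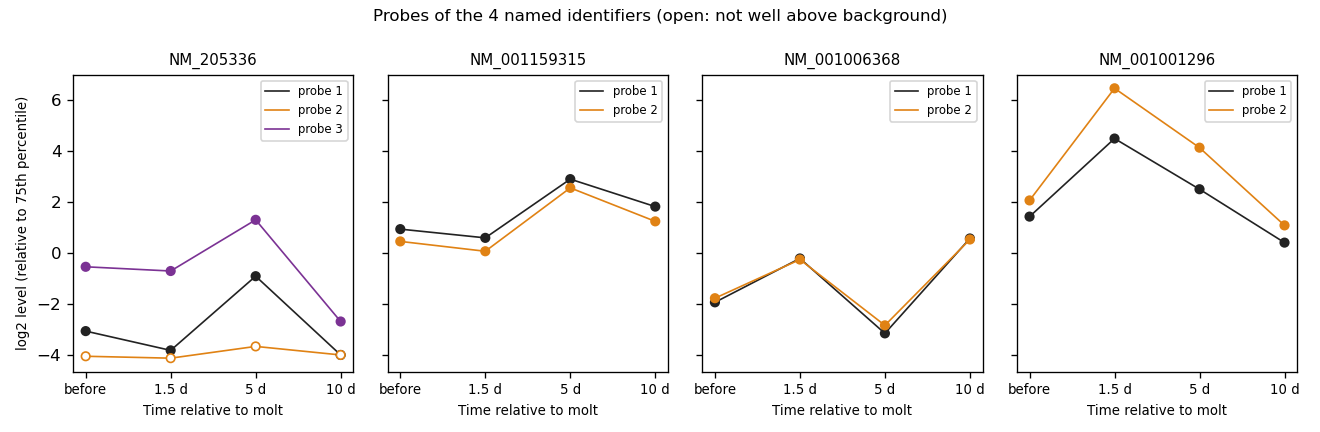
Level of each probe of the 4 named identifiers at the 4 times (1 array each), in log2 units relative to the 75th percentile; open circles are not well above background. The rule on names requires the probes in use for 1 identifier to lie on the same side at 5 days against 1.5 days. Those of NM_205336 have ratios 0.90 apart, and its probe 2 stays at background. The 4 mean ratios are 2.46, 2.40, -2.76 and -2.16.

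At 5 days 434 of the 550 lower identifiers (78.9%) were at the lowest of their 4 levels, against 19.7% of all compared. Likewise, at 1.5 days 506 of the 654 higher ones (77.4%) were at their lowest, against 20.3% of all compared. A stricter cut asked for 2-fold from all 3 other arrays, and no share over all identifiers is given for it. The sets also differed in level. At 1.5 days the median was -2.80 for the higher set and -1.05 for the lower one, with a detection bound of -4.14. The part of level in the counts below was not tested. The choice of the identifiers by the ratio itself makes positions under either cut more frequent, so they are given as a description. Of the 550 lower identifiers 321 (58.4%) were at least 2-fold below all 3 other arrays at 5 days, and 90 (16.4%) were at least 2-fold above all 3 others at 1.5 days. Of the 118 at 4-fold these numbers were 104 (88.1%) and 10 (8.47%). Of the 654 higher identifiers 145 (22.2%) were at least 2-fold above all others at 5 days, and 213 (32.6%) were at least 2-fold below all others at 1.5 days, while 298 (45.6%) met neither condition and 2 met both. Of the 39 at 4-fold 19 (48.7%) met the condition at 5 days and 12 (30.8%) that at 1.5 days, while 10 met neither and 2 met both.

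Median levels and signal shares of these sets are also given as a description, since the choice by the ratio sets the order of 5 and 1.5 days. For the 118 identifiers at least 4-fold lower, the median was 2.28 before molt and 0.73 at 1.5 days, then -1.62 at 5 days and 1.65 at 10 days. For the 39 at least 4-fold higher it was -2.49, -3.20, -0.77 and -1.76 at these times. The 118 held 25.3% of the summed signal before molt and 6.97% at 1.5 days, then 0.706% at 5 days and 23.7% at 10 days, nearly all of it from the 28 bright identifiers. The 654 identifiers at least 2-fold higher held 1.72% at 5 days and 0.690% at 1.5 days.

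The arrays of 10 days and before molt share no array with the comparison, and 17971 of its identifiers could be compared there too. Between 10 days and before molt, 4.69% of all 17971 passed 2-fold upward and 7.65% downward. Of the 581 among them called higher at 5 days, 86 (14.8%) passed it upward and 55 (9.47%) downward, with a median ratio of 0.09. Of the 527 called lower at 5 days, 30 (5.69%) passed it upward and 109 (20.7%) downward, with a median of -0.23. The median over all 17971 was -0.04. In each set the share that passed in the set's own direction was the larger one and lay above the share over all. The share in the opposite direction also lay above that over all in each set. Over all identifiers, downward was already the more frequent direction. Of the 8858 dimmest identifiers 4.64% were called higher at 5 days, against 3.47% of all compared, and 2.87% lower, against 2.92%. Dim transcripts have a larger spread between probes, and their part in these shares was not tested.

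Between kinds of identifier, the share of higher calls ran from 3.06% to 5.78% and that of lower calls from 2.19% to 3.30%. The upper end of the higher calls came from 1 group, that of other kinds, and the next highest share was 4.12%. The part of level in these shares was not tested. Of 3601 RefSeq NM mRNAs compared 3.06% were at least 2-fold higher and 2.19% lower, and of 8091 Ensembl chicken transcripts 3.15% were higher and 2.93% lower. Of 4223 identifiers that are CR or BX accessions 3.29% were higher and as many lower. Of 1214 RefSeq XM or XR identifiers 4.12% were higher and 3.30% lower, and of 1729 identifiers of other kinds, the dimmest of these groups with a median level of -1.43, 5.78% were higher and 3.18% lower. The NM mRNAs were brighter, with a median level of 0.12 against -0.88 for Ensembl transcripts and -1.03 for CR or BX accessions. Of the 118 identifiers at least 4-fold lower 59 were Ensembl transcripts, which make up 42.9% of all identifiers compared, as were 7 of the 10 at least 16-fold lower. All 28 bright identifiers are among the 118, and 26 of these 28 are Ensembl transcripts. Of the 10, 6 belong to the 28. Both counts are thus in part the bright set counted again and are no separate result on this kind of identifier.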

How the data were processed

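Total RNA of 4 skin samples was labelled with Cy3 and hybridised to 1-colour Agilent arrays, 1 per time. The authors' deposited scanner files hold spot intensity values made with Agilent Feature Extraction 10.7, per the submitters' processing notes, and release 10.7.3.1 per the file headers. The processed intensity is background-subtracted and not scaled between arrays. A table of log2 values for the series was also deposited by the authors. All of its 43603 rows could be matched to probes, every column had a median of 3.74, and each correlated best with its own array (r at least 0.9995), so its direction is known. How it was scaled and centred is not stated in the labels.

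Each array's 75th percentile over 43803 non-control spots was subtracted on the log2 scale. Spots flagged as outliers on any of the arrays were dropped, a loss of 39 probes, and 0 spots were saturated. Repeated spots were averaged, and a dim value was raised, where needed, to the lowest detected one of its array, so that its ratio is a bound. This bound was first set from single spots and was moved to probes, after counts had been seen, because in the authors' table a repeated probe with some detected spots set it very low at 5 and 1.5 days. Probes in use for an identifier were averaged. Software was Python 3.11.15 with numpy 2.4.6, pandas 2.3.3 and scipy 1.17.1, and limma 3.58.1 under R 4.3.3. The counting was tested on simulated data. The alternatives were quantile normalization, median centring, spike-in scaling, normexp (offset 50), no filter, detection on both arrays, the authors' log2 table and the brightest probe, with the bound set from spots added after seeing the data. Normexp used the median spot signal, since the files have no column of mean spot signal.

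The comparison, the lists and the rules were chosen with earlier results of these data known. The named identifiers are, each way, the 2 largest ratios among those with 2 or more probes in use, each of them well above background on both arrays and past 2-fold. The rule can also be read as asking for 1 such probe on each array, and 1 other lower identifier (ratio -2.42, 3 probes) would then stand in place of NM_001001296. Gene lists and cell type markers, written by symbol, and groups of neighbouring genes could not be matched to the identifiers and gave no result.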

Additional observations from a re-analysis of the deposited data

How the results depend on the processing

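No replicate could be left out, since each time has 1 array. No paired analysis was possible because the result comes from no test and each group has 1 array. The brightest probe gives no value for agreement or spread between probes. The wider gap between neighbouring identifiers was not run, since the files give no coordinates. Signal over background limits the counts, since the filter keeps out probes at background.

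The 654 higher and 550 lower identifiers stayed within 1.5 times their number under quantile normalization, median centring, detection on both arrays, the authors' log2 table and the brightest probe. Without a filter there were 1572 higher and 1438 lower, under spike-in scaling 1580 and 279, and under normexp 77 and 457. With the bound for dim values set from spots, an alternative chosen after seeing the data, there were 654 higher and 542 lower. In the authors' table so treated there were 819 and 822, of which 49.9% were higher, with an SD between probes of 0.33, and at 4-fold 135 and 161. Spike-in scaling shifts every ratio alike, and normexp adds a constant to every intensity, which weighs most on dim ones. Of those past 2-fold, 59.5% were higher under median centring, 57.5% under quantile normalization, 57.6% in the authors' table, 85.0% under spike-in scaling and 14.4% under normexp. Every probe was past 2-fold in 23.3% of higher and 22.3% of lower identifiers without a filter. The SD between probes was 0.43 under normexp and 0.33 under quantile normalization and in the authors' table. At 4-fold, 39 higher and 118 lower became 1 and 55 under normexp, 111 and 75 under spike-in scaling, and 221 and 287 without a filter, so that the excess of lower ones turned under spike-in scaling. On the remaining probes, the median for identifiers chosen as lower was -0.06 under spike-in scaling and -0.05 without a filter. The median ratio of all identifiers was 0.33 and 0.14 under these alternatives. The 4 named ratios kept their direction in each alternative, from 1.12 to 2.81 for NM_205336, 1.53 to 2.75 for NM_001159315, -2.76 to -0.50 for NM_001006368 and -2.54 to -1.81 for NM_001001296.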
